A study of Schizosaccharomyces pombe with 4 samples.

Results

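The genes described here were listed as assembly, maturation and export factors of the 60S subunit, the large part of the ribosome, in the fission yeast Schizosaccharomyces pombe. They were chosen by name: of 60 listed names, 48 were gene names in the deposited table of 5129 genes, and 47 of these had a mean of at least 1 FPKM (fragments per kilobase of gene, scaled to the size of the library) over the genotypes. The remaining gene, sda1, was listed at 0 in every genotype and could not be compared. The gene lsg1 is counted among the 47 by its name only, since RefSeq gives its product as a subunit of the Lsk1 kinase complex. RNA was sequenced from untreated cells in exponential growth in 4 genotypes: wild type and single knockouts of sfp1, ifh1 and fhl1. The study asked about Sfp1, a transcription factor placed downstream of the growth kinase complex TORC1, in the control of ribosome production. The labels name no further allele, marker or strain background for these genotypes. For each gene the table lists 1 FPKM value in a genotype, between a lower and an upper limit called its bounds here, so differences have no replicate check and no p-value is given.

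A large subunit precursor is built around ribosomal RNA in the nucleolus. Helicases, methyltransferases and scaffold proteins fold and trim the RNA there, GTPases and a large ATPase then remodel the particle in the nucleoplasm, and an export adaptor takes it to the cytoplasm, where the last placeholder proteins are exchanged for ribosomal proteins. Most of these roles are known from budding yeast, and many of the proteins are essential there. Making ribosomes is among the largest costs of a growing yeast cell, and genes of these factors are known to be switched together with growth conditions.

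Each deleted gene stood between 0.0509 and 0.556 FPKM in its own knockout and between 45.1 and 270.3 FPKM in the other genotypes. The depth of the libraries is unknown, since only FPKM were deposited. The bounds of the 47 genes had a median half-width of 33.1 to 34.8% of their midpoint over the genotypes. In wild type the FPKM of 7 genes, all of 750 bp or less, lay outside their own bounds, so the bounds and the FPKM of such short genes were not on the same footing. FPKM are shares of a library from a whole culture, so that fewer cells with a transcript and less of it per cell cannot be told apart, nor can a lower level and a larger amount of other RNA.

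In wild type the 47 genes were well expressed: their median level was 178.5 FPKM, against 71.1 FPKM over all 4761 genes that passed the same minimum, and 41 of 47 lay above that all-gene median. The range ran from 2.56 FPKM for nog2, a GTPase of nucleoplasmic particles, to 667.9 FPKM for tif6, which keeps the subunits from joining too early. Next to tif6 at the top stood rlp7 at 657.8 and the nucleolar GTPase gene nog1 at 551.6 FPKM, and only rrp14 joined nog2 below 10 FPKM, at 6.40 FPKM.

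**Figure D1:**
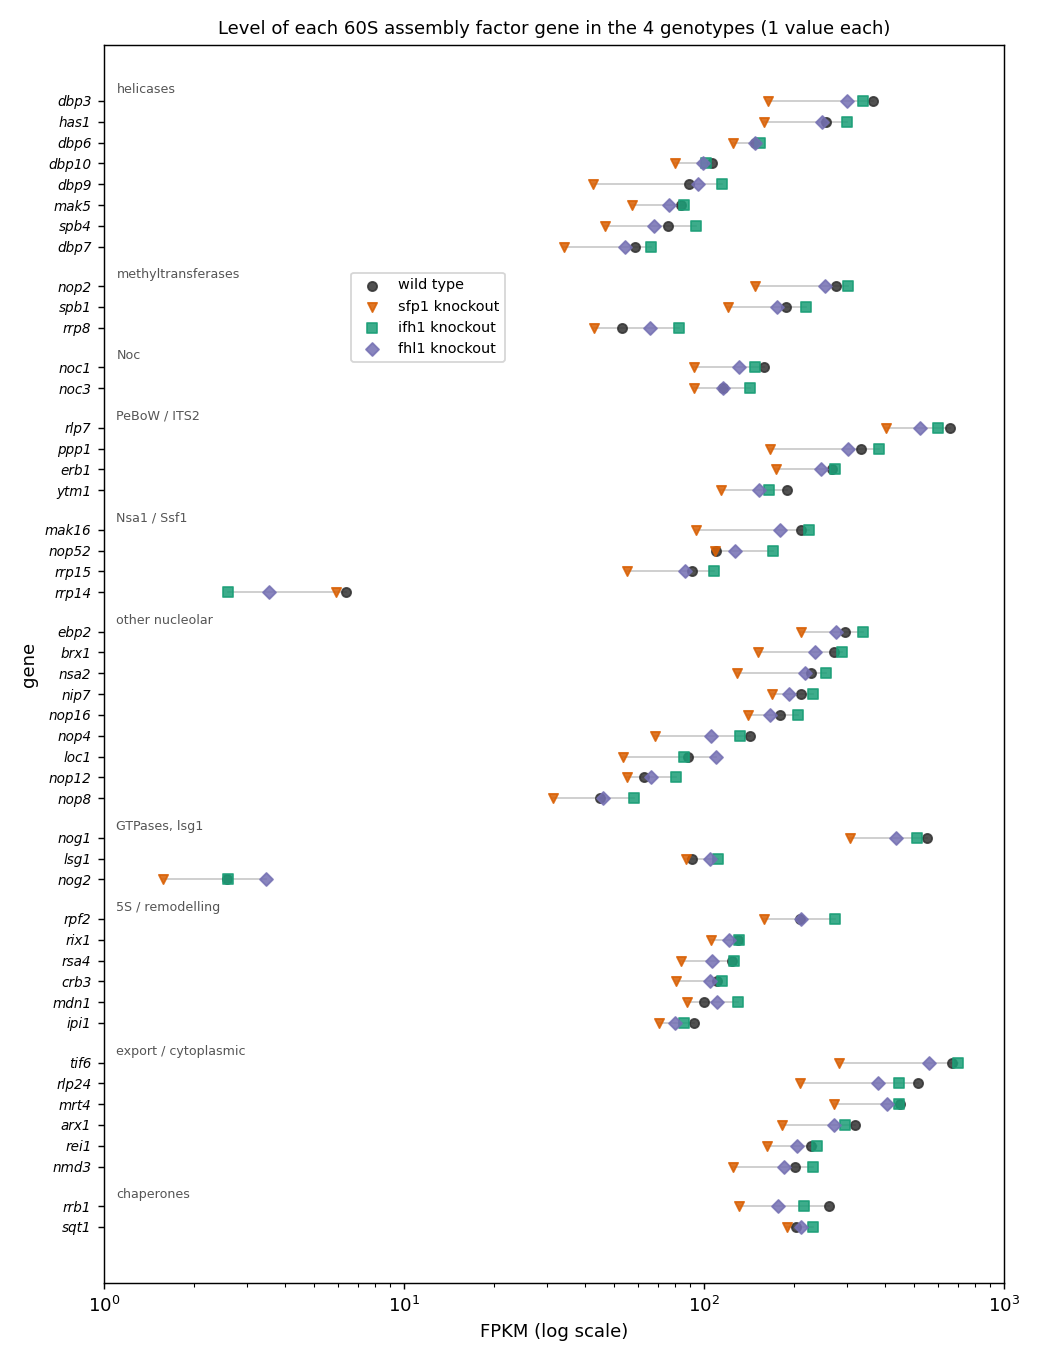
FPKM (log axis) of the 47 genes in the 4 genotypes (wild type and the knockouts of sfp1, ifh1 and fhl1), 1 value each, grouped by role and ordered by wild-type level; grey lines join the lowest and highest value of a gene. The sfp1 knockout marker is the lowest in 46 of 47 genes, rrp14 being the exception.

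How far the levels of these genes depend on Sfp1 was asked first. The 47 genes were lower together in the sfp1 knockout than in wild type, at a median log2 ratio of −0.63 on the log2(FPKM + 1) scale, against −0.01 over all genes tested. Their summed level was 5865 FPKM in the sfp1 knockout, 61.0% of the 9613 FPKM in wild type, while cells lacking ifh1 and fhl1 had sums of 10038 and 8533 FPKM, or 104.4% and 88.8%. The FPKM of all genes in the table summed to 84.98%, 84.82% and 86.27% of wild type in the same order of knockouts. All 47 were below wild type, where 51.4% of all genes were. Scaled to the FPKM outside ribosomal protein genes, 41 were, and the median of all genes was then 0.19, so the share of 51.4% does not apply there. At least 1.5-fold lower, a limit chosen after the values were seen, were 25 of 47, or 53.2%, against 9.79% of all genes. At least 2-fold lower were 7 of 47, or 14.9%, against 2.5% of all genes, and 0 were at least 1.5-fold higher, against 8.63%. The count of 7 depended on the scale: it was 8 with a pseudocount of 0.1 FPKM and 4 with one of 10 FPKM. It was 2 (rlp24 and tif6) with libraries scaled to the FPKM outside ribosomal protein genes, where 57 of all genes were past the limit.

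The 7 genes past the 2-fold limit covered early and late steps of assembly. They were rlp24 and tif6, which ride on the particle into the cytoplasm, the helicase genes dbp3 and dbp9, mak16 and nop4, whose budding yeast counterparts act in the nucleolus, and ppp1, the pescadillo family gene of the PeBoW complex. The same 7 of the 47, or 14.9%, had bounds in the sfp1 knockout wholly below those in wild type, against 1.43% of all genes. Bounds with half-widths near 34% of their midpoint come apart close to the 2-fold limit. Their separation in these genes is therefore not a criterion apart from that limit. Just outside the limit came rrb1, which encodes a chaperone of ribosomal protein L3 in budding yeast, with overlapping bounds. It stood at 130.7 FPKM against 261.5 in wild type (−0.995), and with a pseudocount of 0.1 FPKM it was past the limit. The methyltransferase gene nop2 was next, at −0.90.

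**Figure D2:**
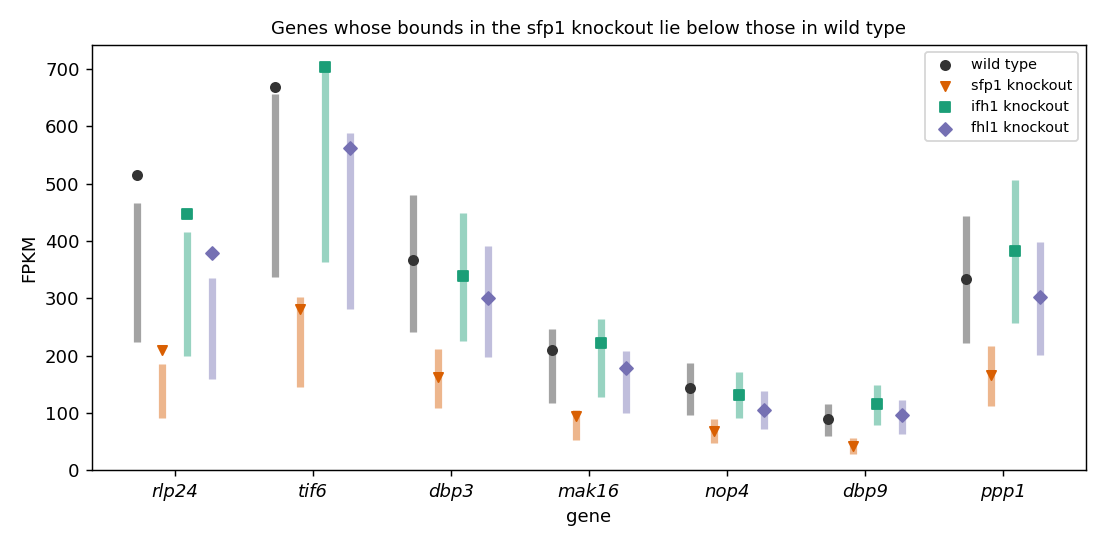
FPKM (markers) and the bounds deposited with them (bars) for the 7 genes whose bounds in the sfp1 knockout lie below those in wild type, ordered by log2 ratio from rlp24 (−1.30) to ppp1 (−1.01). In each gene the sfp1 knockout is the lowest of the 4 genotypes and the bounds of the other knockouts overlap those of wild type; the rlp24 markers lie above their bars, as in other short genes.

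Genes for export, for cytoplasmic maturation and for placeholders of ribosomal proteins had the lowest median of the 10 roles in the sfp1 knockout, −0.77 over 6 genes. The gene rlp24 (SPAC22E12.13c, chromosome I 5043797 to 5044672), a placeholder for ribosomal protein L24, stood at 515.6 FPKM in wild type and at 209.2, 446.4 and 379.6 FPKM without sfp1, ifh1 and fhl1. Its log2 ratio to wild type was −1.30 in the sfp1 knockout, the lowest of all 47, against −0.21 and −0.44 in the ifh1 and fhl1 knockouts. The gene tif6 (SPCC1919.09, chromosome III 2223154 to 2224257) stood at 667.9, 282.1, 703.6 and 562.2 FPKM in the same order, a log2 ratio of −1.24 in the sfp1 knockout. In both genes the sfp1 knockout was the genotype whose bounds lay apart from wild type. The other 4 genes of this role ranged from −0.81 to −0.48: arx1, an export factor (182.1 against 319.6 FPKM), mrt4, a placeholder of the stalk protein P0 (271.3 against 449.1), nmd3, the export adaptor (125.2 against 200.4), and rei1, which acts in the release of Arx1 (162.1 against 227.0).

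RNA helicase genes had a median of −0.69, with 5 of 8 at least 1.5-fold lower, against 9.79% of all genes. The gene dbp3 (SPBC17D1.06) stood at 366.0 FPKM in wild type, 162.8 without sfp1, 339.3 without ifh1 and 300.4 without fhl1. The gene dbp9 (SPCC1494.06c) stood at 88.8, 42.7, 114.8 and 95.7 FPKM in that order, so that it was above wild type in both other knockouts. Set directly against the ifh1 knockout, dbp9 had the lowest log2 ratio of the 47, −1.40, and it was the only one whose bounds also lay below those of the fhl1 knockout, against 0.882% of all genes. Next came dbp7 (−0.77), has1 and spb4 (both −0.69), mak5 (−0.54) and dbp10 (−0.40). The helicase gene nearest to its wild-type level was dbp6, at 124.9 against 148.2 FPKM (−0.25).

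Among ribosomal RNA methyltransferase genes, nop2 stood at 276.2 FPKM in wild type and at 147.5, 302.1 and 253.2 FPKM without sfp1, ifh1 and fhl1, and spb1 at 186.8, 120.2, 219.0 and 174.6 FPKM. The third, rrp8, differed from them: it was low in wild type (53.1 FPKM), at 43.0 in the sfp1 knockout and at 82.5 and 66.2 FPKM in the ifh1 and fhl1 knockouts. Of the Noc proteins, which bind early particles and carry them out of the nucleolus, noc1 had a log2 ratio of −0.77 in the sfp1 knockout and noc3 of −0.32.

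The PeBoW complex of pescadillo, Bop1 (Erb1 in yeast) and WDR12 (Ytm1 in yeast) is needed to process the internal spacer between 5.8S and 25S ribosomal RNA. Its genes ppp1, erb1 and ytm1 were at −1.01, −0.62 and −0.73 in the sfp1 knockout, and rlp7, which acts on the same spacer, at −0.70. All 4 genes of this role were thus at least 1.5-fold lower, against 9.79% of all genes. The levels of ppp1 were 334.3 FPKM in wild type and 165.9, 382.4 and 302.9 FPKM without sfp1, ifh1 and fhl1. By FPKM, ppp1 had the highest level of the 3 genes in wild type and the ifh1 and fhl1 knockouts and erb1 (173.3 FPKM) in the sfp1 knockout. In that knockout the bounds of erb1 (120.3 to 226.0 FPKM) and ppp1 (112.4 to 216.3 FPKM) overlapped almost fully. A change of order is therefore not resolved. The spread between the 3 genes was 1.77-fold in wild type and 1.53-fold in the sfp1 knockout, beside bounds of 222.0 to 443.2 FPKM for ppp1 alone in wild type.

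Of the genes for the later nucleoplasmic steps, 0 of 6 were at least 1.5-fold lower, against 9.79% of all genes. These genes were the least low of the roles with more than 4 genes, at a median of −0.39. They included the Rix1 complex genes rix1 (105.3 against 130.2 FPKM, −0.30), ipi1 (70.8 against 92.6, −0.38) and crb3 (80.3 against 110.3, −0.45), and mdn1, the giant midasin ATPase that pulls factors off the particle (87.7 against 100.1, −0.19). Summed over the complex, Rix1 genes were at 256.5 FPKM without sfp1 and 333.1 in wild type, and PeBoW genes at 452.7 against 789.7. The bounds of every gene of the later steps overlapped those in wild type, as in all of the 47 but the 7 past the 2-fold limit. Overlap alone neither shows nor excludes a difference. The gene for the midasin substrate Rsa4 was at −0.55 and that for Rpf2, of the particle with 5S ribosomal RNA, at −0.41.

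Factors of the Nsa1 and Ssf1 modules, which shape the outer domains of early particles, ranged the most widely, from −1.15 to −0.01. The gene mak16 stood at 209.7 FPKM in wild type, 94.1 without sfp1, 222.9 without ifh1 and 178.8 without fhl1. In contrast, nop52, a nucleolar protein gene, stood at 109.7, 108.8, 169.4 and 126.6 FPKM in the same order, nearly level between wild type and the sfp1 knockout (−0.01). The rrp14 gene, at 6.40, 5.93, 2.60 and 3.55 FPKM, was the 1 gene of 47 whose lowest value was in the ifh1 knockout. Its bounds were wide, from 1.02 to 9.19 FPKM in wild type and from 0.511 to 9.19 FPKM in the sfp1 knockout.

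Of 9 other nucleolar factor genes, all below wild type with a median of −0.51, the RNA-binding protein gene nop4 was lowest, at 142.7 FPKM in wild type and 68.6 in the sfp1 knockout (−1.04). It was followed by brx1 (−0.83), nsa2 (−0.82), loc1 (−0.70), nop8 (−0.51) and ebp2 (−0.49), and the nearest to wild type were nop16 (−0.35), nip7 (−0.32) and nop12 (−0.18). The loc1 gene has a coding length of 312 bp, and its FPKM in wild type (88.2) was far above its upper bound (41.9). Of the GTPase genes, nog1 stood at 551.6 FPKM in wild type and 306.0, 512.4 and 436.5 FPKM without sfp1, ifh1 and fhl1 (−0.85 in the sfp1 knockout). The value of nog2 (−0.47) rests on 1.57 against 2.56 FPKM. The gene named lsg1 is not a ribosome GTPase gene in fission yeast: RefSeq gives its product as the gamma subunit of the Lsk1 kinase complex. It stood at 87.1 FPKM in the sfp1 knockout and 91.0 in wild type (−0.06), and without it the median of the other 46 genes was −0.65. Among chaperones of ribosomal proteins, sqt1, which guards L10 in budding yeast, stood at 189.6 against 202.1 FPKM (−0.09), unlike rrb1.

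**Figure D3:**
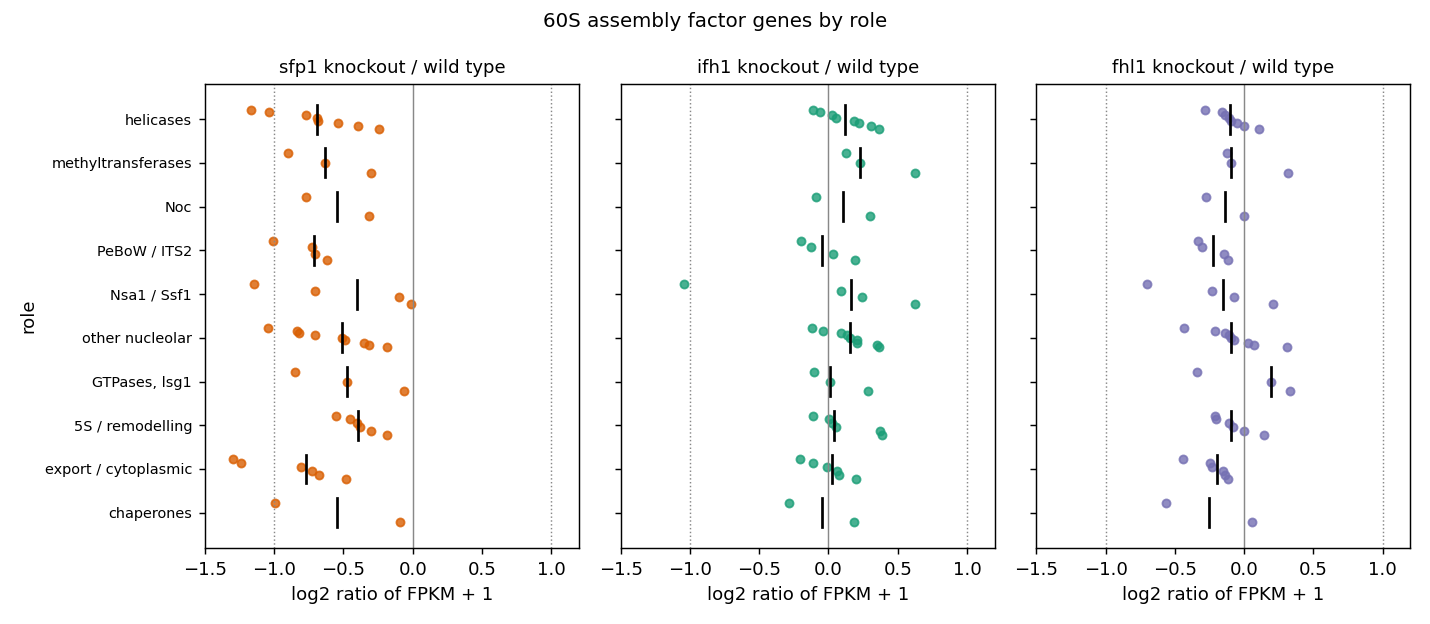
Log2 ratio of FPKM + 1 to wild type for the 47 genes by role in the sfp1, ifh1 and fhl1 knockouts; each point is a gene, black bars are medians of a role, and dotted lines mark the 2-fold limit. Points lie left of 0 in every role in the sfp1 knockout, with the lowest median in export and cytoplasmic genes (−0.77), and on both sides of 0 in the other knockouts, where rrp14 (−1.04 in the ifh1 knockout) is the only gene past the dotted line.

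Genes with higher levels tended to be lower in the sfp1 knockout. To keep the level apart from the values in the ratio, it was taken as the geometric mean of FPKM + 1 in the ifh1 and fhl1 knockouts. Across the 47 genes its log2 value had a Pearson r of −0.43 and a Spearman rho of −0.46 with the log2 ratio of the sfp1 knockout to wild type, against −0.28 and −0.36 across all 4761 genes. These are descriptions across genes that share the same libraries, not across replicates. The 24 genes with the higher levels had a median ratio of −0.73, with 18 at least 1.5-fold lower, and the 23 with lower levels one of −0.45, with 7. Shares of all genes at like levels were not computed, so these counts do not show a trait of the assembly factors. Coding length did not order the genes in this way (r = 0.02 and rho = −0.07 over the 47).

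**Figure D4:**
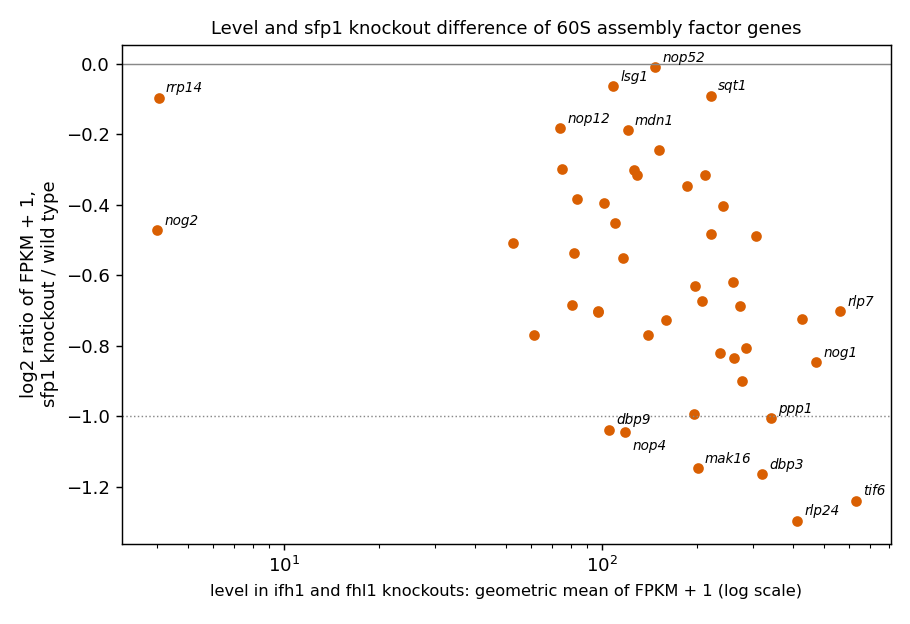
Log2 ratio of FPKM + 1 between the sfp1 knockout and wild type against the level in the ifh1 and fhl1 knockouts (geometric mean of FPKM + 1, log axis), 1 point per gene for 47 genes. The lowest ratios, rlp24 (−1.30) and tif6 (−1.24), belong to highly expressed genes, and nog2 and rrp14 stand apart at low levels.

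In the ifh1 knockout against wild type, the 47 genes lay slightly above their wild-type level, at a median log2 ratio of 0.09, against −0.01 over all genes. Below wild type were 14 of 47, against 52.1% of all genes. The count was 9 with quantile normalization and 1 when scaled to the FPKM outside ribosomal protein genes. Under the latter scaling the median of all genes was 0.28, so the share of 52.1% does not apply there. At least 2-fold lower was 1, rrp14 (−1.04), against 2.84% of all genes, and by midpoints of the bounds 0 were. At least 1.5-fold higher were 2 genes, rrp8 (0.63) and nop52 (0.62), or 4.26%, against 5.21% of all genes, so that share was near the background. No bounds were apart from those in wild type in either direction, where 1.34% of all genes had lower and 0.336% higher bounds. The lowest genes after rrp14 were rrb1 (−0.28), rlp24 (−0.21) and ytm1 (−0.20), and the highest after rrp8 and nop52 were rpf2 (0.38), mdn1, dbp9 and nop8 (each 0.37). The direction of small differences depended on scaling, and rrb1, rlp24 and ytm1 were above wild type once libraries were scaled to the FPKM outside ribosomal protein genes (0.01, 0.09 and 0.10), rlp24 with quantile normalization as well (0.04).

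Genes for the proteins that these factors assemble had other values in that knockout. The 76 large-subunit ribosomal protein genes tested had a median log2 ratio of −0.89 in the ifh1 knockout, and the 55 small-subunit genes one of −0.98. Of the large-subunit genes 28, or 36.8%, were at least 2-fold lower, against 2.84% of all genes. In the sfp1 knockout the same large-subunit genes had a median of −0.55, near the −0.63 of the assembly factors. At least 2-fold lower was 1 of them, or 1.32%, against 2.5% of all genes. In the fhl1 knockout, too, ribosomal protein genes and assembly factors were apart. The large- and small-subunit genes had medians of −0.57 and −0.60 there, against −0.12 for the assembly factors.

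In the fhl1 knockout the 47 genes were slightly lower than in wild type, at a median of −0.12 against 0.02 over all genes. Below wild type were 34 of 47, against 47% of all genes. Scaled to the FPKM outside ribosomal protein genes, 21 were, and the median of all genes was then 0.15, so the share of 47% does not apply there. As deposited, none was at least 2-fold lower, where 0.903% of all genes were. At least 1.5-fold lower was 1, rrp14 at −0.70, against 3.95% of all genes. No bounds lay apart from wild type, where 0.315% of all genes had lower and 0.483% higher bounds. The next lowest were rrb1 (−0.56), nop4 and rlp24 (both −0.44), nog1 (−0.34) and rlp7 (−0.33). The highest were nog2 (0.33), rrp8 and loc1 (both 0.31), nop52 (0.21) and lsg1 (0.20), of which loc1 was at −0.04 by the midpoints of its bounds. With libraries scaled to the FPKM outside ribosomal protein genes the median changed sign, to 0.02, and stood 0.13 below the median of all genes under that scaling.

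**Figure D5:**
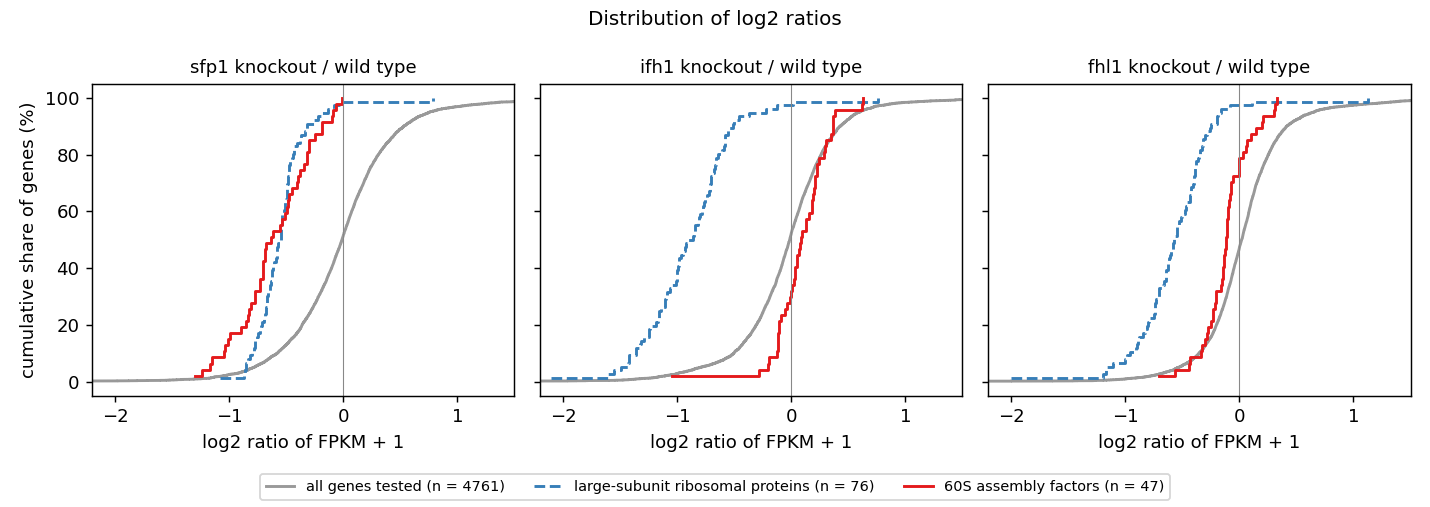
Cumulative share of genes (%) by log2 ratio of FPKM + 1 to wild type in each knockout, for the 47 assembly factor genes, 76 large-subunit ribosomal protein genes and all 4761 genes tested (the most extreme genes lie beyond the x axis). In the sfp1 knockout the assembly factors and the ribosomal protein genes are shifted to the left together (medians −0.63 and −0.55), and in the ifh1 knockout they are apart (0.09 and −0.89). They are apart in the fhl1 knockout as well (−0.12 and −0.57).

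Because the comparisons above share the wild-type sample, the knockouts were also set against each other. Against the ifh1 knockout, 46 of 47 genes were lower in the sfp1 knockout, against 46.5% of all genes, with a median log2 ratio of −0.69. At least 1.5-fold lower were 29, against 7.69% of all genes, at least 2-fold lower 7, against 2.08%, and 10 had bounds below those of the ifh1 knockout, against 1.58% of all genes. They were dbp9, tif6, mak16, ppp1, rlp24, dbp3, nop2, spb4, dbp7 and nop4. Against the fhl1 knockout, 46 of 47 were lower too, against 54.7% of all genes, with a median of −0.50, 17 were at least 1.5-fold lower, against 6.6%, and 2, dbp9 (−1.15) and loc1 (−1.01), at least 2-fold lower, against 1.91%. The FPKM of loc1 lie above their bounds, and by the midpoints its ratio was −0.69, which leaves dbp9 alone past 2-fold. With libraries scaled to the FPKM outside ribosomal protein genes, 15 genes were at least 2-fold lower than in the ifh1 knockout and 1, dbp9, than in the fhl1 knockout. This scaling multiplies each library by 1 factor, so the rise from 7 came with a shift of all genes. Their medians against wild type were then 0.19 without sfp1 and 0.28 without ifh1. The shares of all genes given above are for the values as deposited. Between the ifh1 and fhl1 knockouts the median was 0.24 in favour of the ifh1 knockout, with 3 of 47 lower there (nog2, rrp14 and loc1, the last at 0.06 by midpoints), against 59.5% of all genes. Both nog2 and rrp14 have levels below 10 FPKM, and with a mean of at least 10 FPKM only loc1 was lower. Over the genotypes, the ifh1 knockout had the highest value in 32 of 47 and wild type in 13, and the sfp1 knockout had the lowest in 46. Over all genes tested, the highest value was in the ifh1 knockout for 21.99% and in wild type for 30.54%, near the share that 13 of 47 makes, and the lowest was in the sfp1 knockout for 30.79%.

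Other genes of ribosome assembly gave comparable values. Of 12 further large-subunit assembly genes tested, 11 were below wild type in the sfp1 knockout (median −0.49), against 51.4% of all genes. The lowest was cgr1 (206.2 against 418.8 FPKM, −1.02), then pwp1 (−0.91). The exception was rsa3, at 77.8 against 45.8 FPKM (0.75), and it was at 144.2 FPKM in the fhl1 knockout. With a coding length of 243 bp, rsa3 is a short gene, and the caution given above for the FPKM of such genes applies. Of 56 genes for the small-subunit processome and 40S assembly, 55 were below wild type (median −0.51), against the same 51.4%, with utp23 (−1.23) and imp4 (−1.13) lowest. The 8 genes for proteins of small nucleolar particles, which guide RNA modification, were lowest as a list (median −0.94). Of these, 4 were at least 2-fold lower, against 2.5% of all genes, with fib1 at −1.61 and gar1 at −1.12. The 10 genes for RNA polymerase I and Rrn3 had a median of −0.69, with rpa12 at −1.14 and nuc1 at −1.10. Of the genes named here, cgr1 (336 bp), rpa12 (360 bp) and gar1 (585 bp) are short as well. In the ifh1 knockout the medians of these 4 lists were 0.23, 0.19, 0.08 and 0.08.

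HomolD (CAGTCACA) and HomolE (ACCCTACC) are promoter elements known from fission yeast ribosomal protein genes. They were searched on both strands of the 300 bases before each annotated transcript start in RefSeq's ASM294v3. For 600 protein-coding genes, among them 2 assembly factor genes (nip7 and nop8), that start is the coding start. In these the window may not lie before the transcript. HomolD was found before 88 of 141 ribosomal protein genes (62.4%) and 2.62% of all 5112 protein-coding genes, and HomolE before 41 (29.1%) and 1.55%. Of the 48 assembly factor genes, 1 had HomolD, rlp7, and 0 had HomolE. A match is a description and not a site shown to act, and a missing match says only that these letters are not in that window.

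The stretches shown are that of rlp7, a member of the ribosomal protein L7 family that serves in assembly, beside a ribosomal protein gene, rpl803. The latter has both elements and the lowest ifh1 knockout ratio among such genes. Genes whose stretch touches another transcript, or whose annotated start is the coding start, were passed over in this choice. The stretches of rlp24 and tif6, the lowest genes in the sfp1 knockout, follow. All are from RefSeq ASM294v3, 5′ to 3′ along the strand of the gene, and capitals mark HomolD and HomolE. HomolD starts 47 bases before the transcript in rlp7 and 50 in rpl803. The rlp7 stretch is I:1712698-1712784 (plus strand) and ends just before the start. That of rpl803 is II:601161-601242 (plus strand) and ends 10 bases before the start. The other stretches are the 120 bases before the start, I:5044723-5044842 (minus strand) and III:2223028-2223147 (plus strand).
rlp7: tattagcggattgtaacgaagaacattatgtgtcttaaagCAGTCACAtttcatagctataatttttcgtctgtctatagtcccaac
rpl803: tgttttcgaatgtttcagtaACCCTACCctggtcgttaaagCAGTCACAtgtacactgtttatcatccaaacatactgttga
rlp24: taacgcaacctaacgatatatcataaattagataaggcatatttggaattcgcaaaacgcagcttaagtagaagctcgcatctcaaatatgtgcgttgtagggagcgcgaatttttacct
tif6: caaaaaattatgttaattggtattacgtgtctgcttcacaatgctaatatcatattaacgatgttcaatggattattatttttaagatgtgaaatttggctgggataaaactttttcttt

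The rpl803 gene was picked by its low value in the ifh1 knockout, so its values are a description only. It stood at 1194 FPKM in wild type, 782.2 without sfp1, 441.0 without ifh1 and 638.5 without fhl1 (log2 −1.43 in the ifh1 knockout). The rlp7 gene stood at 657.8, 403.9, 602.5 and 523.2 FPKM in that order, lowest in the sfp1 knockout, as in 46 of the 47 assembly factors.

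Of all pairs of neighbouring protein-coding genes, 1 joined assembly factors of the list: erb1 and nop4 lie side by side on chromosome II and are transcribed away from each other. The 194 bases between their annotated starts, II:2716660-2716853, are given on the plus strand, 5′ to 3′ towards nop4. They hold neither element, so no letters are in capitals.
erb1-nop4: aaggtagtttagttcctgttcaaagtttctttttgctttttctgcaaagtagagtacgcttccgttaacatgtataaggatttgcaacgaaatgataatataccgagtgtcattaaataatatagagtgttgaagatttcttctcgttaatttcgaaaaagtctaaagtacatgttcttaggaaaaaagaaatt

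Both neighbours were lower in the sfp1 knockout, erb1 at 173.3 against 266.7 FPKM (−0.62) and nop4 at 68.6 against 142.7 FPKM (−1.04), and near wild type in the ifh1 knockout (0.04 and −0.12). Another gene of the list, arx1, shares its upstream region of 485 bases with utp10 of the small-subunit processome.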

How the data were processed

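Total RNA of 4 genotypes, 1 sample each, was sequenced from directional libraries, per the labels' protocols. The authors deposited FPKM, each with a lower and an upper limit (its bounds), per the file headers, and gene lengths in bp. The table's name mentions 2 replicates, and their combination into 1 value is not given in the labels. TopHat2 2.0.9 and Cufflinks 2.1.1 are named in the submitters' processing notes, while build, annotation and strand use in counting are not stated in the labels. The crf1d columns stand for the ifh1 knockout, since crf1 is a synonym of ifh1 in RefSeq.

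Ratios were computed as log2(FPKM + 1) differences of FPKM as deposited, for the 4761 of 5129 genes that averaged 1 FPKM or more, in Python 3.11.15 with pandas 2.3.3 and numpy 2.4.6. Counts past 2-fold and medians stand beside those of all genes tested. No test was possible with 1 value per genotype. The ratio step was checked on simulated data. All 48 genes were found in RefSeq ASM294v3, 47 with the same coding boundaries (not dbp3). Starts were made 1-based. No other row of the table overlapped the 47 genes.

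Members, roles and lists were chosen with earlier results of these data known, and matched by exact symbol. From the comparison lists, rrp1, drs1 and dim1 were left out, since their RefSeq products belong to other pathways. All members could be named. The rule for those described in full took the extremes of each role in the sfp1 knockout, the 10 lowest and 5 highest of each comparison, and genes whose bounds were apart from wild type, and of each other list the 2 lowest. The gene rsa3, rpl803 and the 1.5-fold limit were chosen after values were seen. The pseudocount, the minimum, the scaling, midpoints of the bounds and gene span were varied, for the comparisons between knockouts only after the values were seen.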

Additional observations from a re-analysis of the deposited data

How the results depend on the processing

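In the sfp1 knockout the median of the assembly factors stayed below 0 under each of the 11 alternatives, between −0.43 and −0.67, and in the ifh1 knockout above 0. Scaling to the FPKM outside ribosomal protein genes moved most: the median of all genes was then 0.19, 0.28 and 0.15 without sfp1, ifh1 and fhl1, and that of the factors −0.43, 0.39 and 0.016, which relative to all genes is −0.62, 0.11 and −0.13. Below wild type were then 41, 1 and 21 of 47, at least 2-fold lower 2 (rlp24 and tif6) in the sfp1 and 0 in the ifh1 knockout, and over all genes 57 and 55 were lower in the sfp1 and ifh1 knockouts and 153 higher in the ifh1 knockout. With quantile normalization the ifh1 median was 0.22 with 9 below wild type, 64 of all genes were 2-fold lower there, and 45 of 47 factors were below wild type in the sfp1 knockout. By midpoints of the bounds that was 46 of 47, 0 factors were 2-fold lower in the ifh1 knockout, and 77 of all genes were 2-fold higher in the fhl1 knockout. The share of all genes below wild type was not computed under these alternatives. With a pseudocount of 10 FPKM, 4 and 0 factors were at least 2-fold lower in the sfp1 and ifh1 knockouts (dbp9, nop4 and ppp1 were lost), and over all genes 69 lower and 71 higher in the sfp1, 25 higher in the ifh1, and 24 lower and 51 higher in the fhl1 knockout, against 119, 148, 76, 43 and 123 as reported. With a mean of at least 10 FPKM, 0 factors were 2-fold lower in the ifh1 knockout, and 97, 46 and 77 of all genes were higher without sfp1, ifh1 and fhl1. For genes spanning at least 500 bp these were 82, 40 and 55, with 22 lower in the fhl1 knockout. Between the knockouts, 15 factors were at least 2-fold lower without sfp1 than without ifh1 when scaled to the FPKM outside ribosomal protein genes, where the median of ifh1 over fhl1 was 0.40. The share of all genes past the limit between knockouts was not computed there. Against fhl1 the count was 1 under that scaling, with a pseudocount of 10 FPKM, the median of ratios, quantile normalization or midpoints, and with a mean of at least 10 FPKM 1 factor was lower without ifh1 than without fhl1. Of 688 single-gene values recomputed, 0 moved beyond the half-width of their bounds. That limit is wide, so the count of 0 does not show that single genes held. Among the genes recomputed, 6, 9 and 1 changed sign under some alternative in the sfp1, ifh1 and fhl1 knockouts. Medians were called the same within 0.1, and counts within 1.5 times. The causes were not tested. Differences smaller than the bounds cannot be resolved without replicates, and depth is unknown. No paired analysis was possible because each genotype has 1 sample.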

Other observations

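Of the 12 names that are no gene name in the table, 5 belong in RefSeq to genes that the table lists under systematic names only. Their levels in the sfp1 knockout and wild type were 117.4 and 177.6 FPKM for noc201, 91.9 and 99.2 for noc202, which both encode partners of other Noc proteins, 123.3 and 141.0 for nsa1 (wdr74 in RefSeq), 103.6 and 166.9 for rpf1, a Brix domain protein gene, and 106.7 and 127.4 for rrp17, an exonuclease gene. The log2 ratios were −0.59, −0.11, −0.19, −0.68 and −0.25, so that each was below wild type, and with these genes added the median of 52 genes was −0.61 in the sfp1, 0.09 in the ifh1 and −0.11 in the fhl1 knockout. The paralogs noc201 and noc202 thus differed in ratio, and in the ifh1 knockout stood at 0.17 and 0.34.

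The gene rsa3 of large-subunit assembly had its highest level in the fhl1 knockout, 144.2 FPKM, against 45.8 FPKM in wild type, 77.8 in the sfp1 and 75.8 in the ifh1 knockout. Its coding length is 243 bp, so the caution on the FPKM of short genes applies to these values. Of the 47 factors 2 were highest in the fhl1 knockout, against 17.96% of all genes.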
